A study of Poecilia latipinna with 15 samples.

Results

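The transcripts described here are the 200 whose abundance varied least between 15 whole brains of female sailfin mollies (Poecilia latipinna), a livebearing fish in which females choose among males. They were chosen by their spread. The estimated count of each transcript was scaled by the total of its library to counts-per-million (CPM), and the standard deviation (SD) of log2(CPM + 1) was taken over the 15 females. Of 31813 transcripts in the reference, 7038 had a mean of 20 or more transcripts-per-million (TPM, a value that also accounts for transcript length). The 200 most abundant of these were left out, all with a mean of 612 TPM or more, which left 6838 candidates, and the 200 candidates with the smallest SD are the members. Since the rule used the spread itself, the values of that spread are given as a description and were not tested.

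A transcript whose level differs little between individuals can serve as a reference against which other transcripts are compared, as in quantitative PCR, where one or several such transcripts stand for the amount of RNA loaded. The genes usually taken for this work in tasks of every cell, such as the cytoskeleton, the ribosome, energy metabolism and protein turnover, and their steadiness has to be checked anew in each tissue and treatment. Sequencing read counts have a similar need, since a library's total, or a factor built from transcripts that are assumed steady, sets the scale for all others. Transcripts with few reads vary through counting alone, so a small spread is harder to observe where reads are few.

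All females were sexually experienced adults taken from a semi-natural outdoor setting, kept apart from other fish for a time and then given a short choice trial without contact. The female-interaction context (Ff, n = 7) offered a pair of females of unequal size and the male-interaction context (Mm, n = 8) a pair of males of unequal size, and brains were removed right after the trial. No group went without social stimuli, so both contexts share isolation and trial, and each library is 1 female's whole brain, in which fewer cells of a type and less RNA per cell cannot be told apart. Preference (the share of movements toward the favored stimulus) and affiliation (time near either stimulus) were recorded for each female. The study kept only females that spent most of the trial near the stimuli, which narrowed the range of affiliation.

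Library totals ran from 3424641 to 10555933 estimated counts, with a median of 6001956 in Ff and 5774792 in Mm. No pair of libraries agreed within sampling noise, the closest pair differing with a chi-square of 8.57 for each degree of freedom over all transcripts. The females carry the numbers 1 to 13, 17 and 19, and an earlier look at these data found that the libraries of females 1 to 8 (4 Ff and 4 Mm) stood apart from those of females 9 to 19 (3 Ff and 4 Mm). What the numbers stand for is not given, and the split is called the number group below. No table at hand pairs these transcripts with genes, so 0 of them carry a gene name, and neither the neural markers nor the usual reference genes could be looked up.

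The members varied little between females, as the rule required. Their SD of log2(CPM + 1) ran from 0.0617 to 0.1303 with a median of 0.118, whereas the median of all candidates was 0.267 and the highest 4.00. On the linear scale the coefficient of variation was 4.26% to 9.64% in the members, with a median of 8.19%, and 18.8% at the median of the candidates. The library with the most of a member held at the median 1.32 times as much as the library with the least, and at the extremes 1.16 and 1.52 times. This ratio stayed under 1.5 in 198 of 200 members and in 812 of 6838 candidates. It was over 2 in 3141 candidates and in 0 members.

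The threshold fell where transcripts lay close together. ENSPLAT00000025633.1, the last inside with an SD of 0.1303, had 86.7, 93.5 and 110.0 CPM as the lowest, median and highest of the Ff females, and 84.2, 95.7 and 111.9 CPM in the Mm females. The first outside, ENSPLAT00000008983.1 with an SD of 0.1305, had 122.7, 153.0 and 171.3 CPM in Ff and 134.9, 150.6 and 163.3 CPM in Mm. Its Ff females spread more widely than its Mm females, and the ranges of the contexts overlapped for both transcripts.

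**Figure D1:**
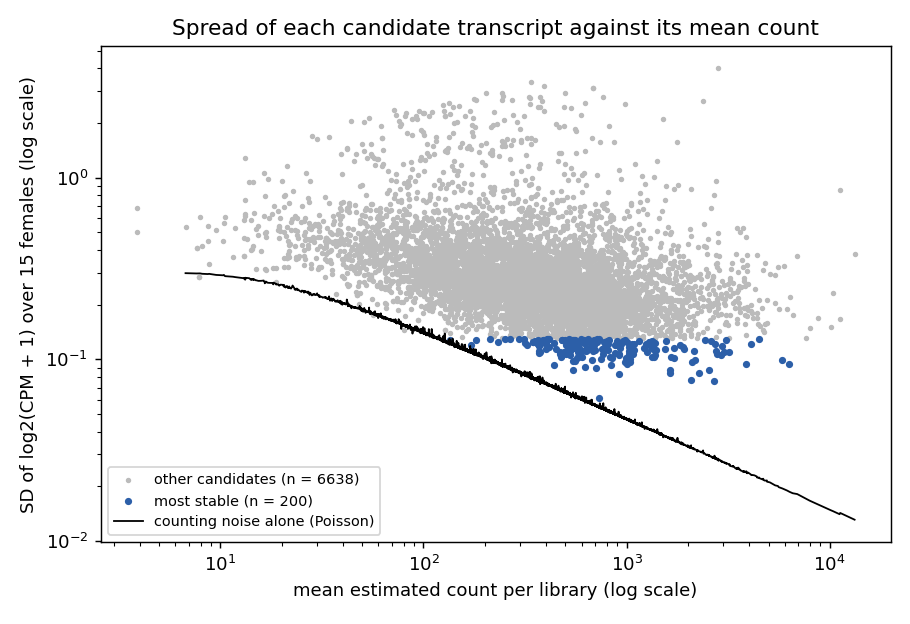
Spread of the 6838 candidates, with the mean estimated count per library on the horizontal axis and the SD of log2(CPM + 1) over 15 females on the vertical axis, both on log scales. The 200 members (blue) lie along the lower edge below an SD of 0.1303, with a median mean count of 680. The line of counting noise alone (black) falls with the count, and ENSPLAT00000022142.1, at a mean count of 732, lies at 1.13 times that noise.

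The members were longer and more abundant in reads than the candidates from which they came. Their median length was 2678 bases, against 1632 for the candidates, and ran from 528 to 7060 bases. Their median mean count was 680 per library (135 to 6324), against 354, while their median abundance per length was 56.3 TPM (20.04 to 569), against 40.7. When the candidates were cut into 5 equal bins by mean count, the bins held 1, 6, 32, 73 and 88 members from the lowest to the highest. By length the bins held 2, 12, 36, 74 and 76 members, the last of them covering 3118 to 16266 bases. Members were thus rare among short and thinly read candidates. Over all candidates the rank correlation of mean count and SD was -0.459, and within the members it was -0.355 (Spearman, descriptions across transcripts that share the same 15 libraries and depths).

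Counting noise was then set beside the observed spread, as the SD that Poisson sampling alone would give at each library's total. It had a median of 0.0568 in the members and 0.0781 in the candidates. The observed SD was 1.04 to 5.83 times this noise in the members, with a median of 2.06, and 3.29 times at the median of the candidates. Counting thus gave, at the median, 23.6% of a member's variance and 9.22% of a candidate's. In 88 of 200 members and 766 of 6838 candidates the SD was less than 2 times the noise, and in 15 members and 150 candidates less than 1.5 times. The noise estimate covers counting only and treats reads as independent molecules.

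Kallisto divides a read that fits several transcripts among them, which leaves estimated counts that are not whole. Counts were whole (within 0.001) in all 15 libraries for 127 of 200 members (63.5%) and for 59.3% of the candidates. They were whole in none for 32 members (16%) and for 20.2% of the candidates. Most members therefore rested on reads assigned to 1 transcript only, and the others could be affected by the way reads were divided among isoforms or paralogs.

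The tightest of all was ENSPLAT00000022142.1, 3240 bases long, with a mean of 47.6 TPM and whole counts in all 15 libraries. It had 107.7, 118.3 and 124.6 CPM as the lowest, median and highest of the Ff females and 112.9, 116.3 and 121.8 CPM in the Mm females. The means were 117.0 ± 6.50 CPM in Ff (SD, n = 7) and 117.3 ± 3.69 CPM in Mm (SD, n = 8), so that the Mm range lay wholly inside the Ff range. Its SD of 0.0617 was close to the 0.0548 expected from counting.

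ENSPLAT00000031282.1, the second, was 1829 bases long and far more abundant, at 319 TPM. It had 410.2, 439.2 and 451.1 CPM in Ff and 395.2, 430.4 and 475.1 CPM in Mm, and here the Ff range lay inside the Mm range. Its SD of 0.0762 stood well above a counting noise of 0.0287, and its counts were whole in 5 of 15 libraries.

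The third, ENSPLAT00000013947.1, was a short transcript of 1022 bases with the highest abundance of the tightest 4, 462 TPM. It had 312.7, 336.7 and 377.9 CPM in Ff and 307.2, 330.9 and 348.5 CPM in Mm. Females 2 and 9 lay above all of the Mm females, and the other Ff females lay within the Mm range. ENSPLAT00000021713.1, the fourth, 2240 bases long with a mean of 88.1 TPM, had 129.6, 143.7 and 157.1 CPM in Ff and 141.7, 151.2 and 158.8 CPM in Mm. Its Ff females reached lower, with female 8 the lowest of all, and the ranges overlapped.

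**Figure D2:**
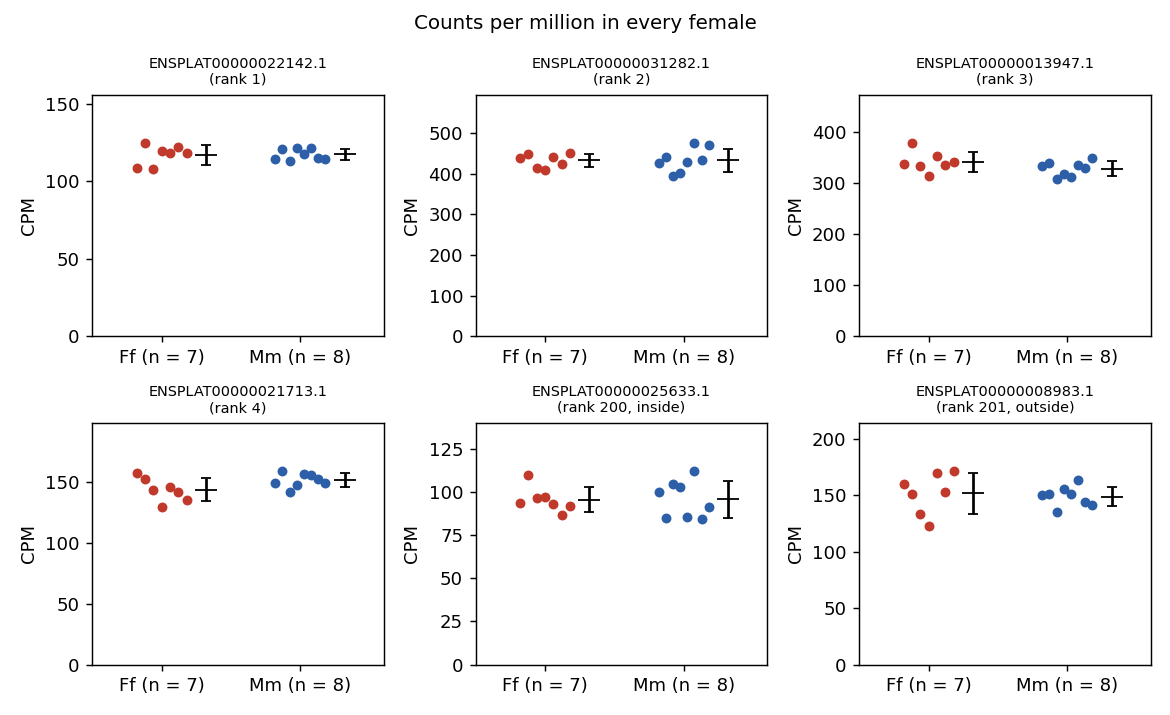
CPM of the 4 tightest members, the last member inside and the first candidate outside the threshold, with 1 point per female by context (Ff, n = 7, red; Mm, n = 8, blue) and mean ± SD in black; each vertical axis starts at 0. For ENSPLAT00000022142.1 all points lie between 107.7 and 124.6 CPM, and in all 6 transcripts the contexts overlap.

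The spread of a member chosen in 15 females is smaller than it would be in other females, because the choice favors transcripts that happened to vary little. The rule was therefore applied within 1 context, and the SD of the chosen transcripts was measured in the females of the other. The 200 transcripts chosen in Ff had a median SD of 0.0964 in Ff and of 0.169 in Mm (quartiles 0.133 and 0.221), where the candidates had 0.255. Those chosen in Mm had a median of 0.0931 in Mm and of 0.165 in Ff (quartiles 0.135 and 0.212), where the candidates had 0.270. The median spread was thus larger in females that had not been used for the choice, and still below that of the candidates.

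Of the 200 chosen in Ff, 175 lay below the candidates' median SD in Mm, and of the 200 chosen in Mm, 178 did so in Ff. Fewer were again among the tightest: 25 of the first list (12.5%) and 23 of the second (11.5%) belonged to the lowest 200 in the other context, where 200 make up 2.93% and 2.91% of the candidates. With the number groups in place of the contexts, 171 of 200 chosen in females 1 to 8 and 169 of 200 chosen in females 9 to 19 lay below the candidates' median in the other group. Of these, 19 (9.5%) and 20 (10%) were among its lowest 200. The rule favors transcripts with many reads in either set of females, and the part of read number in this likeness was not tested.

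**Figure D3:**
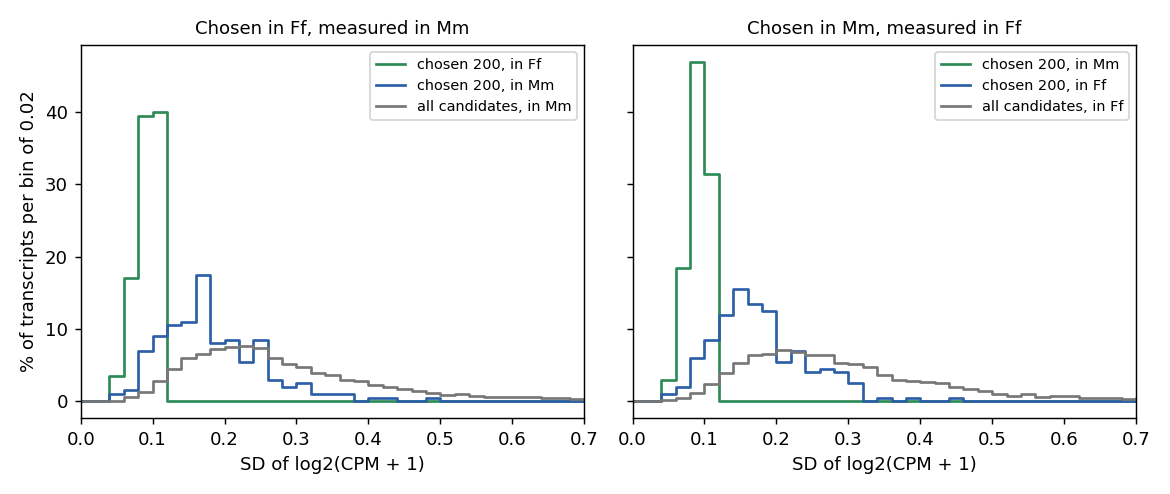
Distribution of the SD of log2(CPM + 1), in bins of 0.02, for 200 transcripts chosen in 1 context, shown in the females that chose them (green) and in the females of the other context (blue), with all candidates in that other context (grey). The blue medians of 0.169 in Mm and 0.165 in Ff lie between the green (0.0964 and 0.0931) and the grey medians (0.255 and 0.270).

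The lists chosen in Ff and in Mm had 24 transcripts in common, which is 12% of each list, where 200 make up 2.93% and 2.91% of the candidates. The whole list was ranked in these same females, so shared transcripts were likely to rank high in it by construction. All 24 were members, and 16 of them held ranks 1 to 24 of the whole list. Their lengths ran from 618 to 4864 bases with a median of 2541, their abundance from 24.6 to 462 TPM and their SD over the 15 females from 0.0617 to 0.115. Their observed SD was at the median 2.02 times the counting noise. The lists of the number groups shared 17 transcripts (8.5% of each), where 200 make up 2.86% and 3.00% of the candidates. Only ENSPLAT00000022142.1, ENSPLAT00000031282.1 and ENSPLAT00000001181.1 (ranks 1, 2 and 5) were on all of these lists together, that is, in both contexts and in both number groups.

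Reference transcripts are usually averaged, so panels were built from the transcripts ranked tightest in 1 context, and the SD of the panel's mean log2(CPM + 1) was taken in the other. From Ff to Mm the panel SD was 0.157 with 1 transcript, 0.0940 with 3, 0.0544 with 5, 0.0595 with 10, 0.0291 with 50 and 0.0221 with 200. From Mm to Ff it was 0.119 with 1 transcript, 0.115 with 3, 0.0688 with 10, 0.0652 with 50 and 0.0633 with 200. A panel of 200 varied less than the single tightest transcript in both directions, and the spread did not narrow steadily in between (0.0890 with 20 from Mm to Ff). No panels of other candidates were compared, so the part of averaging alone was not tested. With TMM the panel SD from Mm to Ff was 0.0992 with 1 transcript, 0.0542 with 3, 0.0764 with 5, 0.0919 with 10 and 0.0715 with 200, so that there the panel of 3 varied least of these.

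Spread can also be described from the ratios between members, in which the library total cancels. For each member the SD of its log2 ratio to each other member was averaged (the M value of the geNorm method, where low is steady). M ran from 0.125 to 0.182 with a median of 0.157. The lowest belonged to ENSPLAT00000013947.1, the third by SD, and the tightest by SD, ENSPLAT00000022142.1, had an M of 0.128. Of the 20 members lowest in M, 14 were also among the 20 lowest in SD, and the rank correlation of the measures was 0.757 over the 200 members (Spearman). Since M was computed from the CPM values that chose the members, it is a second description of the same spread and no independent support. The steadiest ratio among 19900 pairs was that of ENSPLAT00000005250.1 and ENSPLAT00000009587.1, at 2.37 to 2.69 in the 15 females. Its SD was 0.0515 on the log2 scale, where the median pair had 0.157. That lies below the counting noise of ENSPLAT00000009587.1 alone, 0.0743, and the pair was picked as the lowest of all. So small an SD need not recur in other females. The correlation between members over the females had a median of 0.067 and was positive in 58.8% of pairs.

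Each member was chosen for a steady share of the library, so their summed share varied little by construction, and no other set of transcripts was compared. The lowest, median and highest shares were 3.06%, 3.28% and 3.36% in Ff and 3.08%, 3.20% and 3.26% in Mm. The means were 3.23 ± 0.108% in Ff (SD, n = 7) and 3.20 ± 0.0565% in Mm (SD, n = 8), and the Mm range lay inside the Ff range. Female 8 had the least and female 2 the most. The same females recurred at the single members, female 2 being highest for 32 of 200 members, female 8 lowest for 31 and female 10 lowest for 27.

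The level of the members in a library depended on how libraries were scaled. On the CPM scale the median member deviated from its own mean by -0.068 in female 8 up to 0.045 in female 2 (log2). The median candidate deviated over a like range, by -0.053 in female 10 up to 0.053 in female 1. A narrow range of these medians is thus no trait of the members. With TMM, which adjusts each total so that most transcripts do not differ between libraries, the median member deviated by -0.074 in female 6 up to 0.116 in female 19. On the TPM scale it deviated by -0.113 in female 8 up to 0.122 in female 17. TMM factors were 1.001 to 1.034 in females 1 to 8 and 0.943 to 1.010 in females 9 to 19. Effective lengths were the same in all libraries, so TPM differed from CPM by 1 factor per library, which follows the mean length of what was sequenced. That mean (harmonic, of effective length, weighted by reads) ran from 1183 bases in female 13 to 1369 bases in female 17. Fewer of the members were kept when the list was chosen on another scale, 138 of 200 with TMM and 124 with TPM.

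**Figure D4:**
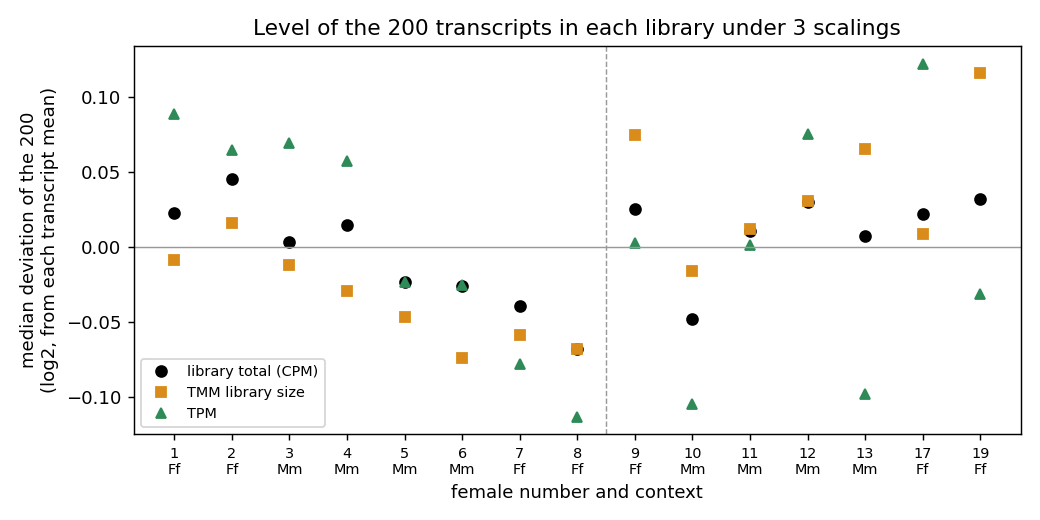
Median deviation of the 200 members from their own means (log2) in each of the 15 libraries, by female number and context, with libraries scaled by total (black circles), by TMM (orange squares) or as TPM (green triangles); the dashed line separates females 1 to 8 from 9 to 19. On the CPM scale the values stay within -0.068 to 0.045 (medians of all candidates, not drawn, within -0.053 to 0.053). With TMM females 1 to 8 reach 0.016 at most while female 19 stands at 0.116.

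The question for a reference transcript is whether it differs between the groups to be compared. Context was tested with voom and limma over 21671 transcripts, all 200 members among them. Only 1 of 200 members passed an unadjusted p of 0.05, where 2.69% of all transcripts tested and 1.74% of the candidates did, and after Benjamini-Hochberg adjustment 0 members passed, with a background of 0%. The rule kept out any transcript with a large difference between contexts, so a low count was set in part by the choice. edgeR and DESeq2 each called 3 members unadjusted and 0 adjusted, all higher in Ff. Over 21671 transcripts tested edgeR called 222 higher and 234 lower unadjusted, and DESeq2 219 and 256. Among 6838 candidates edgeR called 60 higher and 55 lower, and DESeq2 58 and 70. After adjustment edgeR called 0 of all transcripts tested and DESeq2 called 1.

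The rule also bounds the difference between contexts and its error, because both were measured in the females that chose the members, so the next values describe the list and do not test it. Ff minus Mm ran from -0.133 to 0.158 over the members (log2, limma), with a median of 0.012, with 119 estimates above 0 and 81 below. The 95% interval lay wholly within a 1.2-fold difference in either direction for 184 of 200 members (92%), for 14.9% of the candidates and for 6.01% of all transcripts tested. For the remaining members a difference of more than 1.2-fold was within the interval. On the CPM scale the ranges of the contexts overlapped for every member, and were apart for 0.0185% of the transcripts tested.

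ENSPLAT00000030176.1, 5587 bases long, was the member called for context. Its Ff females had 86.5, 92.4 and 100.4 CPM as lowest, median and highest and its Mm females 70.0, 84.2 and 93.1 CPM, so that the ranges overlapped, with female 12 the lowest and female 19 the highest. The means were 92.3 ± 4.82 CPM in Ff (SD, n = 7) and 83.4 ± 6.84 CPM in Mm (SD, n = 8). The difference was 0.16 on the log2 scale (SE 0.07, 95% interval 0.0006 to 0.316; limma, unadjusted p = 0.0493, adjusted p = 1.00). Its counts were whole in 0 of 15 libraries, and it was not called with limma on log2(TPM + 1). It was also no longer called without female 3, 5, 6, 7, 8, 9, 10, 11, 12, 13 or 19 (11 of the 15; limma, unadjusted p up to 0.107, adjusted p of at least 0.999). In the other direction ENSPLAT00000009587.1 had the smallest p and was not called, with 59.8 ± 5.63 CPM in Ff (SD, n = 7) and 65.5 ± 3.76 CPM in Mm (SD, n = 8) and a limma difference of -0.13 (adjusted p = 1.00).

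Preference was fitted as a slope within each context. In Mm 5 of 200 members were called at an unadjusted p of 0.05, all with negative slopes, against a background of 11.9% of all transcripts tested and 14.2% of the candidates. In Ff 1 member was called, with a negative slope, against 6.39% and 8.94%. In Mm 1345 positive and 1230 negative slopes were called over all transcripts tested, and 384 and 589 in the candidates. In Ff the counts were 875 positive and 510 negative over all transcripts tested, and 338 and 273 in the candidates. The choice of the smallest SD in these same females also bounds the slopes, so low counts were set in part by the choice. After adjustment with limma 0 members passed in Mm or Ff, where 0.00461% of all transcripts tested and 0.0146% of the candidates passed in Mm and 0% in Ff. DESeq2 called 1 member in Mm after adjustment (adjusted p = 0.0216), where it called 271 of 21671 transcripts tested and 114 of 6838 candidates. Unadjusted, it called 12 members in Mm and 8 in Ff, against 2707 and 1622 of all transcripts tested. With edgeR the counts were 10 and 4, against 2417 and 1402, with 0 members after adjustment. With the number group as a term, limma called 0 members in either context. It then called 1100 of 21671 transcripts tested and 320 of 6838 candidates in Mm, and 646 and 243 in Ff. Without female 4 it called 2 members in Mm, against 2277 of 21515 transcripts tested. The Ff count was 0 without female 3, 4, 5, 9, 11 or 12, 2 without female 6 and 5 without female 8. Without female 6 limma called 1303 of 21512 transcripts tested in Ff, and without female 8 it called 1710 of 21507. With library totals or log2(TPM + 1) the 1 member called in Ff had a positive slope. Of all transcripts tested 1085 positive and 399 negative slopes were called with library totals, and 788 and 689 with log2(TPM + 1).

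The direction of these slopes rested on the scaling. In Mm 155 of 200 slopes were below 0 with TMM, 116 with library totals alone, 67 with log2(TPM + 1) and 83 with the number group as a term. The median slope was -0.16 with TMM, -0.04 with library totals and 0.07 with TPM (log2 per unit of preference score), where the median of all transcripts tested was 0.12, 0.24 and 0.29. Within the candidates the medians were -0.09, 0.02 and 0.13, so the members differed from the candidates by about -0.06 on each scale.

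ENSPLAT00000008543.1, seventh by SD, had the smallest p for preference in Mm. Its Mm females had 233.7, 253.4 and 279.4 CPM as lowest, median and highest and its Ff females 250.8, 269.9 and 279.3 CPM, with overlapping ranges and the lowest values in females 5 and 3. Its slope in Mm was -0.63 (SE 0.22; limma, unadjusted p = 0.0126, adjusted p = 0.341), a fall with preference that kept an unadjusted limma p of at most 0.0324 whichever female was left out. With the number group as a term the slope was -0.42 (limma, adjusted p = 0.937), and on log2(TPM + 1) it was -0.39 (limma, adjusted p = 0.472), and it was called in neither. With DESeq2 the slope was -0.65, and this is the member that passed after adjustment there (adjusted p = 0.0216). The smallest p among positive slopes was that of ENSPLAT00000007132.1, which was not called (0.42, SE 0.27; limma, adjusted p = 0.544).

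For affiliation limma called 0 members in Mm, against a background of 5% of all transcripts tested and 3.69% of the candidates. There edgeR called 0 members, against 835 of 21671 transcripts tested, and DESeq2 called 2, against 1331. After adjustment 0 members passed with any of these tools, where limma called 0.00461% of all transcripts tested, edgeR 0 transcripts and DESeq2 19. Without female 12 limma called 1 member unadjusted, against 1023 of 21521 transcripts tested, and without female 19 also 1 member. In Ff 7 members were called, all with positive slopes, against 7.29% and 8.86%. Of all transcripts tested 647 were called with positive and 933 with negative slopes, and of the candidates 353 and 253. After adjustment 0 members passed with limma, edgeR or DESeq2, where DESeq2 called 98 of 21671 transcripts tested. In both contexts the choice of a small SD worked toward low counts for affiliation too. The slopes also cover only the narrowed range of affiliation in the females that the study kept. The Ff count was 16 without female 17 and 12 without female 8, where 832 and 727 of 6838 candidates were called. The Ff count was 3 without female 19. It also turned with the scaling. With library totals alone 3 members were called, all positive, where 412 positive and 1223 negative of all transcripts tested were called. On log2(TPM + 1) 2 members were called, both negative and neither among the 7, against 263 positive and 1750 negative of all transcripts tested.

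The number group was the contrast in which most members were called. The split had been found in these same libraries, so calls for it were in part set in advance. Its p-values therefore describe the split and are no independent test of it. With limma and TMM 42 of 200 passed an unadjusted p of 0.05, where 23% of all transcripts tested and 32.3% of the candidates did. Of these, 41 were lower in females 1 to 8, a direction in which 11.3% of all transcripts tested and 20.1% of the candidates were called, and 1 was higher. The share of members called lower was thus close to that of the candidates. After adjustment 7 members passed, all lower in females 1 to 8, against 7.33% of all transcripts tested (4.42% in that direction) and 13.2% of the candidates (9.53% in that direction). The adjusted count fell to 1 without female 6 and was between 2 and 5 without any other. Over all transcripts tested adjusted calls fell as well, from 1588 of 21671 to 1308 of 21512 without female 6 and 946 of 21537 without female 3. The adjusted count of members was 8 with edgeR, 19 with DESeq2, 1 with library totals, 2 on log2(TPM + 1) and 2 without the low-count filter. Over all transcripts fitted these settings called 1399, 2177, 1667, 1506 and 1413 after adjustment. Over both directions the members' share of calls lay below that of the candidates, and the choice of tight transcripts worked toward this.

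The lean toward lower values in females 1 to 8 held with TMM, with edgeR (46 of 47 calls) and with DESeq2 (53 of 56), and not on every scale. These 3 are not separate scales, since edgeR used the same TMM factors. The DESeq2 factors, relative to library totals, lay near them (0.947 against 0.943 in female 19, 1.031 against 1.014 in female 7). Over all transcripts tested edgeR called 2369 lower and 2206 higher, and DESeq2 2566 and 2255. Among the candidates edgeR called 1399 lower and 807 higher, and DESeq2 1485 and 804. With library totals alone 16 members were called, 11 lower and 5 higher. Of 21671 transcripts tested 1893 were then called lower and 3240 higher, and of 6838 candidates 1039 and 1125. On log2(TPM + 1) 7 members were called, 2 lower and 5 higher. Of all transcripts tested 1624 were then called lower and 3491 higher, and of the candidates 867 and 1237. The median difference of the members was -0.08 with TMM, -0.02 with library totals and 0.01 with TPM, while that of all transcripts tested was 0.05, 0.10 and 0.11. The members therefore stood 0.04 below the candidates and 0.11 to 0.13 below all transcripts tested on each scale, and the zero point moved between scales. TMM factors moved with the number group, as given above, and their part in these calls was not tested beyond the change of scale.

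ENSPLAT00000017039.1 had the smallest p for the number group, although its SD of 0.123 placed it among the tightest 200. It is a short transcript of 801 bases with a mean of 228 TPM and whole counts in all 15 libraries. Females 1 to 8 had 111.5, 117.5 and 120.5 CPM as lowest, median and highest and females 9 to 19 had 126.6, 139.6 and 141.3 CPM. The ranges were apart, in Ff and Mm females alike. The means were 116.7 ± 3.75 CPM (SD, n = 8) and 135.6 ± 6.38 CPM (SD, n = 7), and the limma difference was -0.27 on the log2 scale (SE 0.06, adjusted p = 0.0119). Its adjusted p was 0.0274 with library totals and 0.0479 with log2(TPM + 1), and at most 0.0313 whichever female was left out. Between contexts it did not separate, at 125.6 ± 11.3 CPM in Ff (SD, n = 7) and 125.4 ± 11.4 CPM in Mm (SD, n = 8; limma difference 0.01, 95% interval -0.19 to 0.20).

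ENSPLAT00000013079.1 was the member called in the other direction. Females 1 to 8 had 90.8, 94.4 and 103.6 CPM as lowest, median and highest and females 9 to 19 had 78.6, 84.8 and 88.9 CPM, again without overlap. Its means were 96.47 ± 5.599 CPM (SD, n = 8) and 84.2 ± 3.88 CPM (SD, n = 7), and the limma difference of 0.14 (SE 0.06, unadjusted p = 0.0403) had an adjusted p of 0.194. Its unadjusted limma p rose above 0.05 without female 1, 2, 3, 5, 9, 10, 11, 13 or 17, to 0.0903 at most (adjusted p up to 0.336). With library totals its difference was 0.20 (limma, unadjusted p = 0.00581, adjusted p = 0.0636). On log2(TPM + 1) it was 0.22 (limma, unadjusted p = 0.0124, adjusted p = 0.0998). CPM ranges of the number groups were apart for 3 of 200 members, against 2.04% of the transcripts tested and 3.96% of the candidates. A transcript can thus be among the steadiest over all females and still separate the number groups without overlap.

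**Figure D5:**
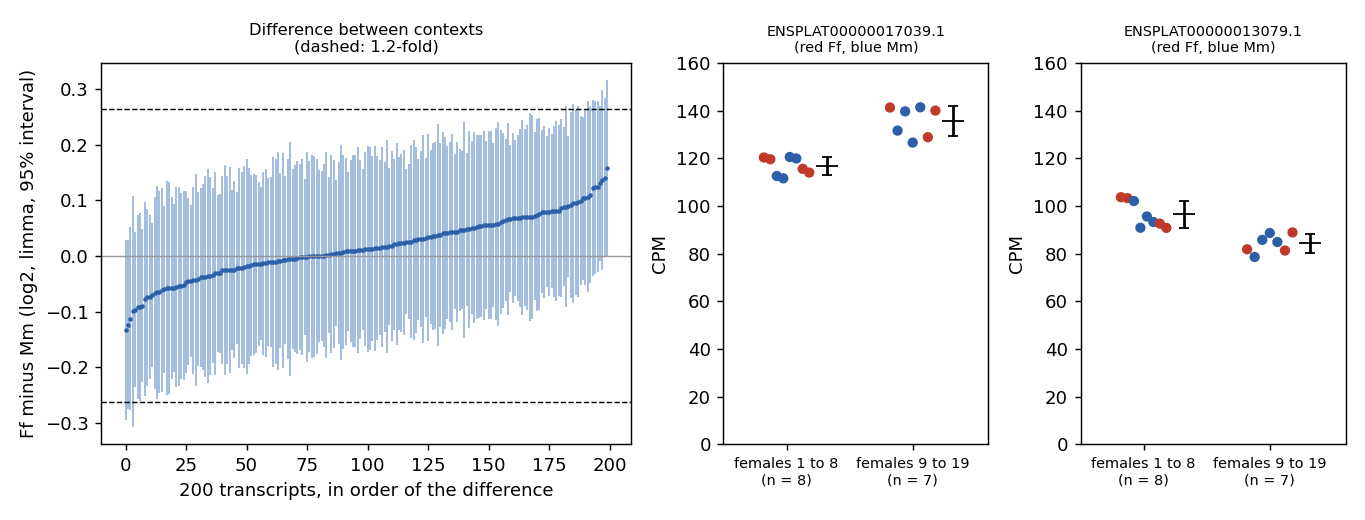
Left, limma difference between contexts (Ff minus Mm, log2) with its 95% interval for each of the 200 members in order of size, with dashed lines at a 1.2-fold difference and most intervals inside them, which the choice of the smallest SD in the same females brings about. Middle and right, CPM of ENSPLAT00000017039.1 and ENSPLAT00000013079.1 in each female by number group (Ff red, Mm blue, mean ± SD in black, axis from 0), where the groups do not overlap and the transcripts differ in opposite directions.

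Members differed in how firmly they held their place. Under 30 other settings of the rule, 15 of them leaving out 1 female, 0 members were chosen each time, and 124 were chosen whichever female was left out. A floor of 50 TPM is among the 30, and it drops any member with a lower mean. Under the other 3 scalings and the coefficient of variation 77 were chosen throughout. ENSPLAT00000022142.1, ENSPLAT00000031282.1, ENSPLAT00000001181.1 and ENSPLAT00000011915.1 were chosen in 29 of the 30. The first was missed only with a floor of 50 TPM, which lies above its mean, and the last only in females 1 to 8 alone. The middle pair was missed only when spread was ranked relative to counting noise.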

How the data were processed

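Whole-brain RNA-seq of 15 females was used, 7 Ff and 8 Mm. The authors trimmed reads with cutadapt, checked them with FastQC and pseudoaligned them with kallisto 0.43.0 to the Ensembl cDNA of P. latipinna. The estimated count that the authors deposited for each transcript need not be whole and was not scaled between libraries. The deposited TPM values were computed by kallisto from these counts and effective lengths, and the deposited lengths are in bases. Preference, affiliation and context per female came from the study's supplementary table.

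CPM (counts-per-million) values were estimated counts scaled by the library total. Members were the 200 smallest SD of log2(CPM + 1) among transcripts of 20 TPM or more, without the 200 most abundant. For tests, counts were rounded, and transcripts above 2 TPM in 3 or more females (21671 of 31813) were fitted with TMM, voom and limma 3.58.1 (R 4.3.3) over all 15 females. The models were those of the study for context, preference and affiliation, and context plus number group. P-values were two-sided, adjusted by Benjamini-Hochberg over all transcripts fitted, and a call was an unadjusted p below 0.05, since the study also starts from unadjusted values; its permutation step was not used. In all 6 contrasts were read, and p-values measure the spread between females.

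Alternatives were edgeR 4.0.16, DESeq2 1.42.0, library totals without TMM, limma on log2(TPM + 1), no low-count filter, the number group as a term, each female left out, and other forms of the rule. Python 3.11.15 with pandas 2.3.3 and NumPy 2.4.6 was used for the rest. Scripts were tested on simulated data with known answers. The members, lists and contrasts were chosen with earlier results of these data known. By rule, the transcripts named were the 4 tightest, the last inside and first outside the threshold, and the smallest p in each direction for context, number group and preference in Mm; those named for ratios or for recurring in lists were chosen after their values were seen. Lists of reference genes, gene families and brain cell markers had been set and could not be looked up, since 0 transcripts were paired with a gene name. Counting noise was the Poisson SD of log2(CPM + 1) by the delta method.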

Additional observations from a re-analysis of the deposited data

Results flagged for a closer look

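Of 28 values per group that were screened for 1 sample far from the rest, 1 had such a sample. The share of reads on the 200 members was lowest in Mm in female 10, at 3.08%, and its gap to the next Mm female was 0.576 of the range of the 8 Mm females, above Dixon's 95% critical value for 8 samples. Chance alone gives such a sample in about 1 group of 20. Among the single members a far library was seen in 7 of 200 in Ff (3.5%) and in 4 of 200 in Mm (2%), and among the candidates in 6.19% and 5.37%. The choice of a small SD in these same females worked toward a lower share in the members.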

How the results depend on the processing

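Of the 200 members, 124 were again chosen on log2(TPM + 1), 79 by the median absolute deviation, 111 with a floor of 50 TPM, 77 in the Ff females alone, 92 in the Mm females alone, 58 in females 1 to 8 alone, 66 in females 9 to 19 alone, 112 by the SD within number groups and 23 by the SD over counting noise. The last list had a median mean count of 89.5 and a median SD of 0.203. A floor of 50 TPM only removes candidates, so the 111 kept there are the members whose mean reaches it. Leaving out 1 female kept 158 (without female 13) to 179 (without female 6), and the other forms of the rule kept 138 to 194. Counts below the candidates' median SD in the other context stayed at 170 to 181 with TMM and TPM and at 169 and 171 between number groups. Members called for context were 3 with edgeR, 3 with DESeq2, 0 on TPM and 2 with the number group as a term. Over 21671 transcripts tested these settings called 456, 475, 585 and 740. With 1 female left out 0 to 2 members were called. The count of 2 came without female 1 or without female 17, against 608 of 21549 and 595 of 21500 transcripts tested. For preference in Mm the members called were 10, 12, 1 and 0 in the same order of settings, and 3 with library totals. Over all transcripts tested these settings called 2417, 2707, 2842, 1100 and 2649. With 1 female left out 2 to 7 members were called. The count of 2, without female 4, stood against 2277 of 21515 transcripts tested. For preference in Ff the members called were 4 with edgeR, 8 with DESeq2, 0 without the low-count filter and 0 with the number group as a term. Over all transcripts fitted these settings called 1402, 1622, 1897 and 646. With 1 female left out 0 to 5 members were called. The count of 5, without female 8, stood against 1710 of 21507 transcripts tested. For affiliation in Mm 2 were called with DESeq2, against 1331 of 21671 transcripts tested, and 0 to 1 with 1 female left out. For affiliation in Ff 18 were called with DESeq2, against 2040 of 21671 transcripts tested and 813 of 6838 candidates. With library totals 3 were called, against 1635 of all transcripts tested, and on TPM 2, against 2013. With 1 female left out 3 to 16 members were called. The count of 16, without female 17, stood against 832 of 6838 candidates. For the number group 16 were called with library totals and 7 on TPM, against 5133 and 5115 of 21671 transcripts tested. With 1 female left out 29 (without female 8) to 42 (without female 11) were called. Over all transcripts tested the calls were then 4793 of 21507 and 4697 of 21518. The causes were not tested. No paired analysis was possible because each female was assigned at random to 1 context only. Counting noise was larger in transcripts of few reads, and the part of depth in the make-up of the list was not tested. In the lowest of the 5 bins by mean count the median counting noise was 0.150, above the largest member SD of 0.1303. That bin held 1 member, and its median observed SD was 0.378. In the second bin the median counting noise was 0.102, below the largest member SD, and the bin held 6 members.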
